A study of Homo sapiens with 6 samples.

Results

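The regions described here are contact anchors that carried H3K27ac after 3 days of SMARCB1 re-expression, had no H3K27ac anchor before it and had no ARID1A anchor at day 3. They were measured by HiChIP, which joins chromosome conformation capture to immunoprecipitation and counts paired-end tags (PETs) that link distant DNA segments held at a mark or protein. An anchor is a segment at one end of such a link, a loop is a pair of anchors, and the anchors of all 6 libraries were merged wherever they overlapped by 1 bp or more. The 51970 distinct anchors became 30001 merged anchors, of which 16175 held a day 3 H3K27ac anchor and 9185 of these held no day 0 H3K27ac anchor. Of the 9185, 2669 also held no ARID1A anchor, and these are the members. They made up 16.5% of the day 3 H3K27ac anchors and 29.1% of the day 3-only ones, while the other 6516 day 3-only anchors did hold an ARID1A anchor.

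All libraries came from G401, an established human rhabdoid tumour line, in a stable derivative with a doxycycline-inducible SMARCB1. There were 2 ARID1A libraries at day 3 (SMARCB1 +/+), 2 H3K27ac libraries at day 3 (SMARCB1 +/+) and 2 H3K27ac libraries at day 0 (SMARCB1 -/-). The day 3 cells had received doxycycline at 1 μg/ml, so SMARCB1, the drug and time in culture changed together and cannot be told apart. No label says whether the inducible line is a single clone or whether replicates were separate cultures, so a p-value here reflects library-to-library spread that could be purely technical. The ARID1A libraries held 435210 and 467487 PETs, the day 3 H3K27ac libraries 929128 and 982141, and the day 0 H3K27ac libraries 301703 and 253502.

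SMARCB1 is a core subunit of the SWI/SNF (BAF) chromatin remodelling complexes and is lost in rhabdoid tumours. ARID1A is a large subunit of the canonical BAF complex; the related PBAF complex carries ARID2 instead, and ARID1B can take the place of ARID1A in canonical BAF. BAF complexes open chromatin at distal enhancers, where H3K27ac marks active regulatory DNA, and enhancers act on promoters through looped contacts. An absent ARID1A anchor means only that none was listed by the authors: ARID1B, ARID2 and other subunits were not measured, and where a group lists no anchor it gives no value. No fold or test between times or antibodies is therefore given at the members themselves. Tests were possible only on the anchors that the members contacted. The files carry no gene names, and regions are named by position in the hg19 build and by cytoband. A gene named with a band is background on that band, and no gene is assigned to a region.

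The members were many, short and individually weak, and the 2 day 3 H3K27ac libraries gave nearly the same picture of them. Replicate 1 listed 2635 members and replicate 2 listed 2641, with 2607 in both and 62 in only 1. The PETs per member had a Spearman correlation of 0.962 between the replicates over the 2669 members, which share anchor calls and cells, and 92.1% of members were within 2-fold of each other in CPM, the PETs of an anchor scaled to a common library total. The members covered 13.6 Mb, with widths from 2012 to 40632 bp and a median of 4808 bp. The rule itself favours short regions, since a wide one is more likely to overlap another group's anchor. A median member was touched by 30 PETs in replicate 1 and 31 in replicate 2, and had 11 partner anchors in each. Levels ran from 0.543 to 1763 CPM (mean of the 2 libraries) with a median of 33.8. Only 42 members passed 200 CPM, and the top 10% by CPM held 33.9% of the summed level.

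Together the members were an end of 12.5% and 12.3% of day 3 H3K27ac PETs in replicates 1 and 2. Day 3-only anchors with ARID1A were an end of 36.8% and 36.6%, and anchors present at both times with ARID1A of 85.3% and 85.5%. These shares overlap because each loop has 2 ends. The median PETs per anchor were 30 and 31 for members, 38 and 39 for day 3-only anchors with ARID1A, and 109 and 116 for anchors at both times with ARID1A. Median partner counts followed the same order, at 11 and 11, 13 and 13, and 21 and 21. In each library the members therefore stood lowest of these 3 classes, and the step to the anchors with ARID1A at both times was much larger than the step to the other day 3-only anchors. Anchors at both times without ARID1A lay between those 2 classes, with medians of 49 and 54 PETs and 15 and 16 partners. These are values of 2 libraries of 1 group, chosen by a rule on anchors, and no test was made.

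Part of that order went with width. Among anchors of 2.5 to 5 kb, the members had medians of 25 and 27 PETs, day 3-only anchors with ARID1A 28 and 29, and anchors at both times with ARID1A 47 and 51. Among anchors of 5 to 10 kb the medians were 35 and 36, 44 and 44, and 79 and 84 PETs. Only 15 members were under 2.5 kb wide, with medians of 17 and 14 PETs, against 29 and 35 for 29 day 3-only anchors with ARID1A of that width. Only 50 members were 10 kb or wider. They had medians of 115.5 and 122.5 PETs, against 114 and 120.5 for the 632 day 3-only anchors with ARID1A of that width, so at this width the day 3-only classes overlapped. Anchors at both times with ARID1A still stood above both there, with medians of 239 and 256 PETs. Those at both times without ARID1A stood higher still at this width, with medians of 300 and 312.5 PETs over 166 anchors. In the narrower classes they had 33 and 35 PETs at 2.5 to 5 kb and 53 and 57 at 5 to 10 kb. The share of day 3-only anchors that lacked ARID1A fell with width, being 33.9% at 2.5 to 5 kb, 27.5% at 5 to 10 kb and 7.33% at 10 kb or more. The rule itself favours such a fall, since a wider anchor is more likely to overlap an ARID1A anchor.

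**Figure D1:**
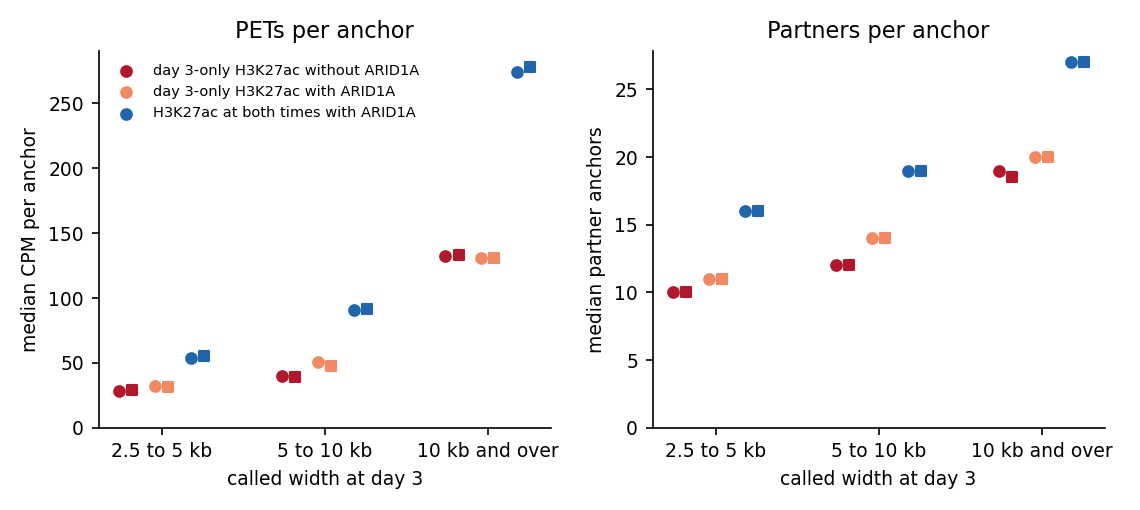
Median CPM per anchor (left) and median number of partner anchors (right) by called width at day 3, in the 2 day 3 H3K27ac libraries (circle, replicate 1; square, replicate 2). The few anchors under 2.5 kb are not drawn. Members lie just below day 3-only anchors with ARID1A at 2.5 to 5 kb, farther below at 5 to 10 kb (medians of 35 and 36 PETs, against 44 and 44) and level in CPM at 10 kb and over, and anchors at both times with ARID1A lie above both, at 239 and 256 PETs per anchor among those of 10 kb and over.

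The strongest members were led by a single region far above the rest. The 2p16.1 member (chr2:58736084-58776716, the widest at 40632 bp, in a band that holds the non-coding gene LINC01122) had 1541 and 1617 PETs, or 1763 ± 9.59 CPM (SD, n = 2). It made 540 and 532 PETs with the next anchor, at 58778232-58853761, 241 and 242 with 58716650-58734875 and 177 and 197 with 58690846-58712991. All 3 of these neighbours held H3K27ac anchors at both times and no ARID1A anchor. Its 4th strongest loop, with 142 and 165 PETs over 189.2 kb, went to 58922776-58968489, which had ARID1A. Only 37.8% and 40.0% of its PETs went to ARID1A anchors, and its nearest ARID1A anchor lay 54320 bp away, while a day 0 H3K27ac anchor lay 1209 bp away.

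The next strongest member lay at 12p13.1 (chr12:13057882-13071090; the band holds CDKN1B, a cell-cycle inhibitor, and GPRC5A) with 486 and 552 PETs. Its strongest partner, at 13012471-13056853 with 181 and 203 PETs, again had H3K27ac at both times and no ARID1A. At 10p12.31 (chr10:21614564-21629033), 517 and 499 PETs were counted, of which 240 and 220 went to an anchor with ARID1A at 21561850-21611627. At 7p15.3 (chr7:22820267-22834257; the band holds IL6, an inflammatory cytokine) there were 405 and 483 PETs, with 147 and 188 to an anchor without ARID1A at 22838349-22868104. These members were between 494.9 and 578.9 CPM, far below the 2p16.1 level. The nearest day 0 H3K27ac anchor lay 1029 bp away at 12p13.1, 2937 bp at 10p12.31 and 4092 bp at 7p15.3.

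The other 8 of the 12 strongest ranged from 328.0 to 456.6 CPM. At 15q22.33 (chr15:67369072-67385674; the band holds SMAD3, a transducer of TGF-beta signals) the counts were 356 and 302 PETs, and 96.3% and 94.7% of them went to ARID1A anchors. At 14q13.2 (chr14:35818408-35828140; the band holds NFKBIA, an inhibitor of NF-kappaB) they were 298 and 303, with 56.7% and 62.0% to ARID1A anchors. At 4q21.1 (chr4:77429779-77435006; the band holds SHROOM3, a regulator of cell shape) they were 291 and 320, with 93.1% and 93.4%. The strong members thus differed widely in how much of their contact was with ARID1A anchors, from the 37.8% and 40.0% at 2p16.1 to the values at 15q22.33. Further members of this rank lay at 6p21.33 (394 and 424 PETs), 12q13.12 (314 and 332), 19p13.3 (317 and 313), 6p22.1 (261 and 342) and 7q22.1 (277 and 311). The nearest day 0 H3K27ac anchor lay 570 bp away at 6p21.33, 1044 bp at 15q22.33, 292 bp at 14q13.2 and 475 bp at 6p22.1. It lay 5833 bp away at 7q22.1, 11208 bp at 4q21.1, 13172 bp at 12q13.12 and 20960 bp at 19p13.3. Over all members the median was 38.8 kb, so the strongest were not far from regions marked at day 0.

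**Figure D2:**
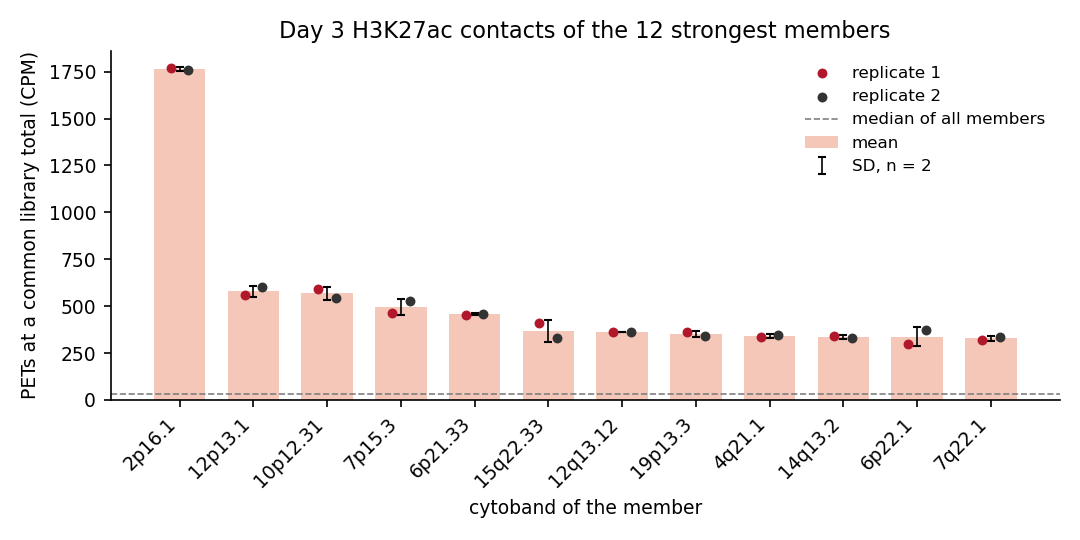
Day 3 H3K27ac CPM at the 12 members with the highest mean, named by cytoband: bars are means, points the 2 libraries, error bars SD (n = 2), and the dashed line the median of all members, 33.8 CPM. The 2p16.1 member stands at 1763 CPM, and the other 11 lie between 328.0 and 578.9 CPM.

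The members with the most partners were only in part those with the most PETs. The member at 22q13.1 (chr22:38664331-38672663) had the most partners, 51 and 49, with 281 and 279 PETs, and its strongest loop, 38 and 34 PETs, was to another member 10.9 kb away. The 12q13.12 member (chr12:50634432-50658215) had 48 and 48 partners. A member at 9q34.11 (chr9:131083303-131088002) had 47 and 42 partners with only 130 and 117 PETs, and a 2nd member at 7q22.1 (chr7:100858731-100862928) had 44 and 45 partners with 148 and 144 PETs. The 2p16.1 member had 19 and 18 partners. Its PETs were thus concentrated on few loops, while the fewer PETs at 9q34.11 were spread over 47 and 42.

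Where the members' contacts went differed in several ways from day 3-only anchors with ARID1A. Of members' PETs, 80.9% and 81.2% ended at an ARID1A anchor, against 86.7% and 86.6% for day 3-only anchors with ARID1A. A further 9.73% and 9.65% of members' PETs ended at anchors with H3K27ac at both times and no ARID1A, against 6.46% and 6.57%. Other members took 9.35% and 9.18% of members' PETs, against the 6.88% and 6.85% that day 3-only anchors with ARID1A gave to members. Most contacts of members were nonetheless with ARID1A anchors. The share reaching an anchor that also had H3K27ac at day 0 was 68.4% and 68.4%, against 66.7% and 67.1%. In each case the 2 libraries differed by under 1 percentage point, less than the gap between the classes, and the gap in the day 0 share was the smallest of the 4. A lower share to ARID1A anchors was not particular to members. Anchors at both times without ARID1A gave 73.6% and 73.9% of their PETs to ARID1A anchors. They gave 18.6% and 18.5% to their own class and 7.75% and 7.54% to members.

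Members' contacts were also shorter and sparser. The PET-weighted median span was 101.4 and 98.9 kb for members, against 126.9 and 123.7 kb for day 3-only anchors with ARID1A. The next merged anchor on either side took 28.1% and 28.4% of PETs, against 22.8% and 22.7%. It was the strongest partner for 48.9% of members, against 40.7%. Loops of a single PET made up 49.0% and 48.2% of members' loops, against 44.9% and 44.6%. Among anchors at both times without ARID1A, the next anchor took 29.6% and 29.4% of PETs. Their span was 110.4 and 107.6 kb, and their single-PET loops were 41.5% and 40.4%. Of the 41642 loops with a member at an end, 46.6% were in both libraries. The class of the strongest partner was an anchor at both times with ARID1A for 1535 members (57.5%), a day 3-only anchor with ARID1A for 562 (21.1%), another member for 309 (11.6%) and an anchor at both times without ARID1A for 263 (9.85%). Of the 12 strongest members by CPM, 6 had a strongest partner of the last kind.

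Contacts between members involved most members but were a small part of their contacts. Of the 41642 loops with a member at an end, 3017 had a member at each end, 532 of them longer than 1000 kb. At least 1 of these involved 2192 of the 2669 members. Members took 9.35% and 9.18% of members' PETs and 6.55% and 6.44% of those of all day 3 H3K27ac anchors, of which they were 16.5%. The strongest joined neighbouring members at 11q13.2 (chr11:67972145-67978839 and 67979640-67984140) with 34 and 47 PETs. The next were the 22q13.1 pair with 38 and 34 PETs, a pair at 14q32.2 with 34 and 30, and a pair at 10p12.31 with 28 and 36. Each of these 4 spanned at most 22.9 kb, and each was many times weaker than the leading loop at 2p16.1.

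The members lay near ARID1A anchors, though less near than their counterparts did. The nearest ARID1A anchor was at a median of 12.4 kb from a member, against 8.37 kb from a day 3-only anchor with ARID1A (its own left out). It was within 5 kb for 832 members (31.2%) and beyond 100 kb for 282 (10.6%), against 3.91% beyond 100 kb in the other class. ARID1A anchors were the next merged anchor on both sides for 62.7% of 2656 members with a neighbour on each side, against 77.1%, and on neither side for 7.30%, against 1.94%. The nearest day 0 H3K27ac anchor was at a median of 38.8 kb, against 48.8 kb, and within 5 kb for 429 members. By these medians members were set farther from ARID1A anchors but nearer to day 0 H3K27ac anchors.

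Contact strength of members went with their distance to ARID1A anchors. The 832 members within 5 kb of one had medians of 46.5 and 47 PETs and 14 and 13 partners, with a PET-weighted span of 67.5 and 65.5 kb. The 282 members beyond 100 kb had 6 and 5 PETs and 4 and 3 partners, with a span of 407.3 and 400.3 kb. Even among these remote members, 58.3% and 56.7% of PETs ended at an ARID1A anchor, and 25.6% and 26.2% ended at another member. A like gradient held for the nearest day 0 H3K27ac anchor, with medians of 61 and 63 PETs within 5 kb and 12 and 13 beyond 100 kb. Median width changed little over these classes, from 4928 bp nearest an ARID1A anchor to 4461 bp farthest from one. The local density of anchors changes with these distances too, and its part in the gradient was not tested.

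**Figure D3:**
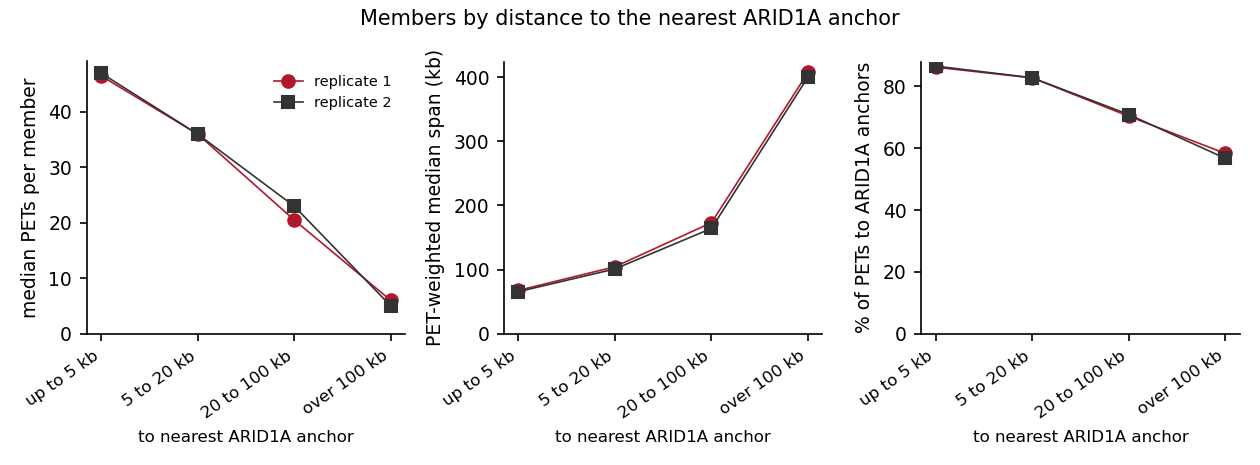
Members by distance to the nearest ARID1A anchor: median PETs per member, PET-weighted median span in kb and percent of PETs that end at an ARID1A anchor, in the 2 day 3 H3K27ac libraries. From the nearest to the farthest class PETs fall, to 6 and 5, while spans lengthen to 407.3 and 400.3 kb.

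ARID1A loops passed over members about as often as over other day 3-only anchors when the gap was short. Where ARID1A anchors were next on both sides and lay under 20 kb apart, ARID1A PETs joined them across 88.7% and 86.8% of 319 members in ARID1A replicates 1 and 2, against 88.1% and 88.1% of 641 day 3-only anchors with ARID1A. At 100 kb or more the flanks were joined across 22.9% and 24.8% of 476 members, against 29.2% and 30.7% of 1256 anchors. The gaps were not matched within these classes. Their median was 227.9 kb for members against 185.9 kb at 100 kb or more, and 13.6 kb against 15.4 kb under 20 kb. The part of gap length in the shares was not tested. These shares measure the flanking anchors, since the members themselves had no ARID1A anchor.

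Members were not spread evenly along the genome. They were 35.3% of the day 3 H3K27ac anchors of chromosome X (95 of 269), outside the range of the autosomes, which ran from 13.1% on chromosome 12 to 21.1% on chromosome 21. Among day 3-only anchors alone the share without ARID1A was 46.6% on chromosome X and 23.7% (chromosome 15) to 37.1% (chromosome 16) on autosomes. The members on X were weak, with a median of 10.6 CPM and 4 partners, against 22.3 CPM and 7.5 partners for X-linked day 3-only anchors with ARID1A. Day 3-only anchors of low level lacked ARID1A more often on X and autosomes alike. Below 10 CPM the share was 62.7% on X, against 37.3% in autosomal regions 5 Mb or more from a chromosome end, and at 10 to 30 CPM it was 45.5%, against 29.6%. At 30 to 100 CPM it was 25.5%, against 26.1%, and above that X had only 5 day 3-only anchors. The excess on X was thus seen among anchors below 30 CPM.

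The ends of autosomes were rich in members. Within 2 Mb of an end, 194 day 3-only anchors lacked ARID1A (53.9%) and 166 had it. The share was 37.9% at 2 to 5 Mb, 29.9% at 5 to 20 Mb and 25.8% beyond 20 Mb. Shares were higher near ends in each of 4 classes of CPM: under 5 Mb from an end, the shares were 62.9% below 10 CPM, 52.1% at 10 to 30, 41.9% at 30 to 100 and 34.0% at 100 or more, against 37.3%, 29.6%, 26.1% and 18.2% at 5 Mb or farther. It was not particular to day 3-only anchors. Among H3K27ac anchors present at both times, 71.0% had ARID1A within 2 Mb of an end, against 83.8% beyond 20 Mb. ARID1A anchors numbered 678 and day 3 H3K27ac anchors 653 within 2 Mb of an end, against 17656 and 10512 beyond 20 Mb. Copy number and mappability were not measured, and their part in these shares was not tested.

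By cytoband, 17q25.3 held the most members (26 of its 91 day 3 H3K27ac anchors), followed by 16p13.3 (22 of 97) and 16q22.1 (21 of 79). Among bands with 15 or more day 3 H3K27ac anchors, a limit set after the values were seen, the highest share was at 5p15.33 (15 of 22, 68.2%), which holds TERT, the catalytic subunit of telomerase, and several IRX homeobox genes. Next among bands of that size were Xp22.2 (10 of 17, 58.8%) and 12q24.33 (12 of 22, 54.5%). Some bands with fewer anchors had higher shares, among them Xp11.21 (6 of 6), 5p15.31 (5 of 5) and 11q24.2 (10 of 14, 71.4%).

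**Figure D4:**
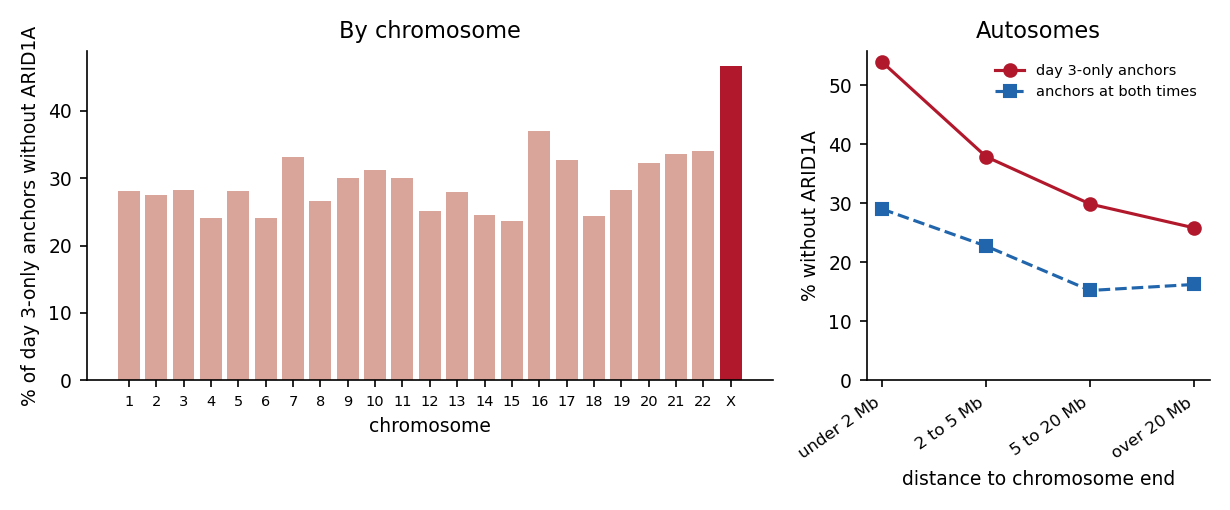
Percent of day 3-only H3K27ac anchors that had no ARID1A anchor, by chromosome (left) and by distance to the nearest chromosome end on autosomes (right, solid line); the dashed line is the same percent among H3K27ac anchors present at both times. Chromosome X stands at 46.6%, and the solid line is at 53.9% within 2 Mb of an end and 25.8% beyond 20 Mb.

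Most members stood alone between other anchors, with 1989 runs of a single member and 250 of 2 in a row. The longest run held 11 members on distal 5p (chr5:1108794-8459934). Over these 7351 kb there was no other merged anchor, and so no ARID1A anchor and no day 0 H3K27ac anchor. Its members were weak, at 1.12 to 20.6 CPM and at most 17 and 22 PETs, and 33 of 68 PETs in replicate 1 and 38 of 62 in replicate 2 stayed within the run. A run of 6 at Xp11.21 (chrX:55025210-57938618) was weaker still, at 1.69 to 3.90 CPM. Of the runs of 5, the one at 12q24.33 (chr12:129279974-131150020) was at 12.3 to 101.7 CPM. A run of 5 at 14q32.2 (chr14:100694292-100780788) was of another kind: it spanned 86.5 kb, its members were at 84.2 to 325.6 CPM, and 143 of 679 and 139 of 758 PETs stayed within it.

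The rule turns on single base pairs at its edge, and 59 members abutted a day 0 H3K27ac or ARID1A anchor. Just inside were regions at 12q13.2 (chr12:56580371-56584992, 205 and 227 PETs), 1p13.2 (chr1:113148088-113156412, 158 and 162) and 11q23.1 (chr11:111324263-111327418, 136 and 171), each 0 bp from an ARID1A anchor. Just outside were regions at 11q13.1 (overlap of 55 bp, 152 and 176 PETs), 8q24.21 (143 bp, 46 and 35) and 17q21.33 (162 bp, 134 and 169), and 25 regions in all were kept out by an overlap under 500 bp. The values on either side of the edge overlapped.

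Depth limits what the absence of a day 0 anchor means, since the day 3 H3K27ac libraries were the deeper ones. It limits the absence of an ARID1A anchor too, since the ARID1A libraries held only 435210 and 467487 PETs. These libraries nonetheless listed more anchors, 26283 and 26350, against 17363 and 17377 with day 3 H3K27ac. When the day 3 H3K27ac libraries were thinned to 253502 PETs, the total of the smaller day 0 library, 2599 of 2669 members (97.4%) still had a loop, with medians of 8 and 8 PETs. The anchors themselves were the authors' and could not be called again at that depth.

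The anchors that members contacted could be followed across time and antibody. A partner here is an anchor joined to a member by 2 or more PETs in each day 3 H3K27ac library. There were 10427 such loops, 2317 members with one, and 5722 partners outside the member class, contacted by 2243 members. Of these partners, 3247 had H3K27ac at both times with ARID1A, 572 had it at both times without ARID1A and 1903 were day 3-only with ARID1A. PETs were summed over loops between anchors measured in both groups, so no PET of a member entered a test. Partners were picked by PETs of the day 3 H3K27ac libraries, which also enter both comparisons.

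Between day 3 and day 0 H3K27ac, partners moved in both directions. By edgeR's quasi-likelihood test with Benjamini-Hochberg adjustment over all anchors, 896 of the 3614 partners tested (24.8%) rose and 714 (19.8%) fell at day 3, against 20.7% and 18.8% of all 6251 anchors tested. The median log2 fold change of the partners was 0.03, against -0.01 for all anchors. Partners had more PETs, a median of 297 summed over the 4 libraries against 211, and how far this bears on the counts was not tested. Partners of day 3-only anchors with ARID1A gave 22.8% and 18.5%, and 3285 partners were common to both lists. Those 3285 gave 26.2% higher and 19.6% lower, with a median log2 fold change of 0.04. The 329 partners of members only went the other way, with 10.9% higher, 21.6% lower and a median of -0.19. They had fewer PETs, a median of 110. This was not particular to partners of members. The 539 anchors on neither list gave 6.12% higher and 20.8% lower, with a median of -0.20. With library totals in place of TMM scaling 276 partners were higher and 2058 lower (7.64% and 56.9%, against 6.29% and 55.0% of all anchors), and the median log2 fold change of all anchors was then -0.62. On either scaling the shares of all members' partners together lay a few points from those of all anchors. Without replicate 1 of day 3, 471 partners fell (14.09%, against 14.01% of all anchors). Of the PETs in these loops, 88.4% ± 0.05 at day 3 and 88.2% ± 0.005 at day 0 touched a partner (SD, n = 2 each; exact permutation test, two-sided, p = 0.33, the smallest that 2 against 2 allows).

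The partners that rose most clearly had been called much wider at day 3. PETs are given unscaled beside each fold, and the day 3 libraries were the deeper ones. The anchor at 12q14.3 (chr12:65976658-66059233; the band holds HMGA2, an architectural chromatin protein) had 1879 and 2067 PETs in the day 3 libraries, against 136 and 104 in those of day 0, a log2 fold change of 2.76 ± 0.08 (SE; edgeR adjusted p = 1.06e-85). A member 61.7 kb away (chr12:66078445-66080874) gave it 35 and 33 PETs. At 2p16.1 the anchors on one side of the leading member rose. The nearer one had 1349 and 1397 PETs at day 3, against 109 and 122 for day 0 (log2 fold change 2.29 ± 0.09), and the farther one, at 58854536-58895687, had 912 and 989, against 30 and 22 (3.91 ± 0.14). The leading member gave the farther one 125 and 178 PETs. At 17q21.31 the partner at 41767192-41817327 had 1155 and 1195 PETs at day 3, against 55 and 48 (3.23 ± 0.11), and a member 157.6 kb away (chr17:41632632-41636731) gave it 14 and 18 PETs. All 8 named partners that rose were 3.43 to 9.11 times wider at day 3 than at day 0 as called, and width was not separated from contact strength there.

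Those that fell most clearly were weakly joined to members, with at most 11 PETs to any member in a library for 7 of the 8 named. PETs to members were counted in the day 3 H3K27ac libraries, where these partners were picked for being low against day 0. Weak joining thus follows in part from the selection. At 15q23 (chr15:67645261-67684333) 94 and 111 PETs were counted at day 3, against 344 and 307 for day 0, a log2 fold change of -2.94 ± 0.11 (edgeR adjusted p = 1.90e-68). It was joined to the strong 15q22.33 member by only 5 and 4 PETs over 287.4 kb. At 15q26.1 (chr15:93339264-93384964) the counts were 74 and 70, against 383 and 279, a log2 fold change of -3.47 ± 0.12, and its one member lay 1798 kb away with 2 and 5 PETs. The exception was 3q13.31 (chr3:115864437-115922802), which fell by 1.36 on the log2 scale and had 46 and 45 PETs to a member 42.1 kb away (chr3:115933169-115938333). Of the 8 named partners that fell, 2 were called wider at day 3 than at day 0.

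Among anchors whose called widths at the 2 times were within 25% of the narrower one, calls were fewer, with 174 of 1408 partners higher (12.4%) and 155 lower (11.0%), against 9.98% and 9.15% of all such anchors.

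Loops between a pair of partners of the same member, here called bridged loops, showed a similar balance. Of 7561 tested, 808 (10.7%) rose and 554 (7.33%) fell at day 3 by edgeR, against 8.35% and 6.7% of all 16642 loops tested. The median log2 fold change was 0.08 for bridged loops, against 0.06 for all. The 6747 also bridged by day 3-only anchors with ARID1A gave 11.4% higher and 7.17% lower. The 814 bridged by members only gave 4.91% and 8.60%, with a median of -0.14. Such shares were not particular to members, since the 2047 loops bridged by neither class gave 4.54% and 7.57%, with a median of -0.06. With library totals 336 bridged loops of members were higher and 1864 lower (4.44% and 24.7%, against 3.47% and 21.3% of all loops). Without the filter on low counts 946 were higher and 160 lower (8.81% and 1.49%, against 2.79% and 0.66%). Leaving out 1 library lowered these counts, to 363 and 272 without day 0 replicate 1, 399 and 333 without day 0 replicate 2, 600 and 238 without day 3 replicate 1, and 565 and 237 without day 3 replicate 2. The shares of bridged loops were then 4.91% to 10.4% higher and 3.68% to 4.47% lower, against 3.33% to 7.73% and 3.17% to 4.20% of all loops. The clearest rise was at 2p16.1, between the anchors 58778232-58853761 and 58854536-58895687, with 471 and 495 PETs at day 3, against 3 and 5 for day 0 (log2 fold change 5.58 ± 0.25, SE; edgeR adjusted p = 1.93e-102). The leading member contacts both, lying beside the pair. At 15q23 the bridged loop from the fallen partner to 68128256-68161205 had 14 and 13 PETs at day 3, against 64 and 47 (log2 fold change -3.33 ± 0.27). With both anchors of similar width at each time, 17 of 1140 bridged loops rose (1.49%) and 18 fell (1.58%), against 0.94% and 1.10% of all 2551 such loops.

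At day 3, the partners were weaker in ARID1A contacts than in H3K27ac contacts. Of 4935 partners tested, 1098 (22.2%) were higher with ARID1A and 2266 (45.9%) lower, against 31.5% and 32.5% of all 11052 anchors measured with both antibodies (edgeR, adjusted as above). The median log2 fold change of ARID1A over H3K27ac was -0.39 for partners, against -0.05 for all. Partners of day 3-only anchors with ARID1A, which leave that class itself out, gave 20.1% higher and 48.7% lower with a median of -0.45, so the shift was not particular to members' partners. The 2946 partners common to both lists gave 16.5% higher and 56.0% lower, with a median of -0.59. The 1989 partners of members only gave 30.7% and 31.0% with a median of -0.07, near the values of all anchors. Day 3-only anchors with ARID1A could fall only in that last group. Both lists were picked by H3K27ac PETs in the same libraries, which favours lower ARID1A, so the shift is given as a description. Partners took 72.5% ± 0.19 of the ARID1A PETs in these loops and 82.5% ± 0.05 of the H3K27ac PETs (SD, n = 2 each; exact permutation test, two-sided, p = 0.33, the smallest possible). With library totals 455 partners were higher and 3435 lower (9.22% and 69.6%, against 16.0% and 54.0% of all anchors), with a median of all anchors of -0.70. Among anchors of similar width, 21.1% of partners were higher and 35.9% lower, against 25.8% and 26.04% of all such anchors.

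**Figure D5:**
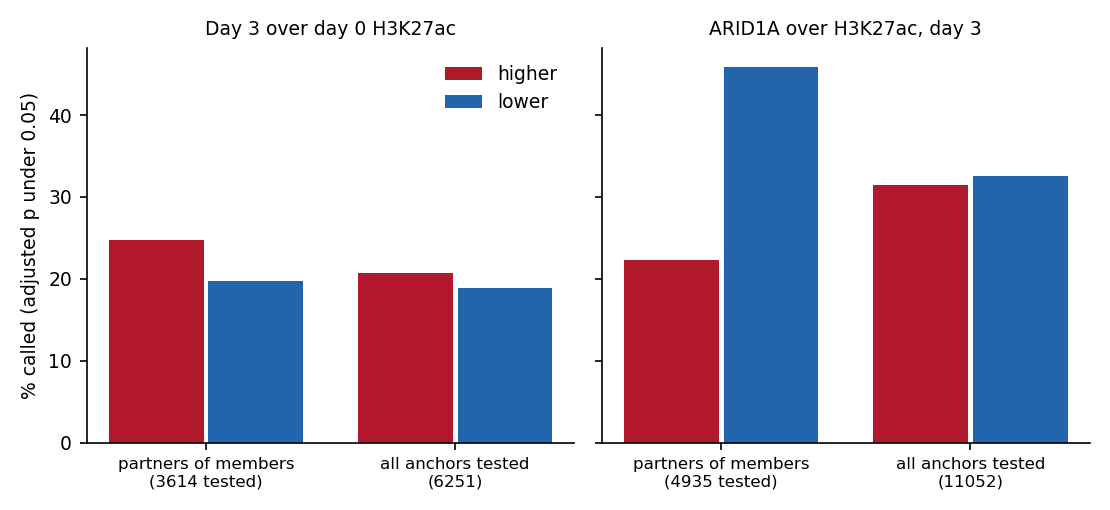
Percent of anchors called higher or lower by edgeR (adjusted p under 0.05) among partners of members and among all anchors tested, for day 3 over day 0 H3K27ac (left) and for ARID1A over H3K27ac at day 3 (right). The left pairs lie near each other, at 24.8% and 20.7% higher, and on the right 45.9% of partners and 32.5% of all anchors are lower.

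The 8 partners lowest in ARID1A were contacted by up to 6 members each. At 17q21.2 (chr17:40591807-40644162) there were 52 and 49 PETs with ARID1A and 1631 and 1566 with H3K27ac, a log2 fold change of -3.29 ± 0.10 (SE; edgeR adjusted p = 8.00e-215), and 5 members contacted it, the strongest with 11 and 14 PETs. At 17p11.2 (chr17:17583376-17632694) there were 57 and 51 PETs with ARID1A and 1289 and 1378 with H3K27ac (-2.93 ± 0.11), and the adjoining member (chr17:17578386-17582867) gave it 92 and 135 of its own 176 and 209 PETs. At 6p22.1, a band that holds clustered histone genes, the partner at 27771845-27811500 (-2.95 ± 0.10) was contacted by 5 members, including the strong one at 27121887-27126858 with 33 and 47 PETs over 667.3 kb. Of the 8 named partners that were lower with ARID1A, 7 were called narrower with ARID1A than with H3K27ac.

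The 8 partners highest in ARID1A were contacted weakly, with at most 12 PETs to any member in a library. PETs to members were counted in the day 3 H3K27ac libraries, where these partners were picked for being low against ARID1A. The 8 lowest in ARID1A were picked for being high there. The contrast in contact with members thus follows in part from the selection. At 6q25.2 (chr6:155092384-155134836) there were 142 and 146 PETs with ARID1A and 31 and 34 with H3K27ac (log2 fold change 3.84 ± 0.17, SE; edgeR adjusted p = 1.28e-107), and its one member, 34.9 kb away, gave it 3 and 4 PETs. At 3q25.1 (chr3:150144618-150192209) there were 204 and 212 PETs with ARID1A and 54 and 69 with H3K27ac (3.45 ± 0.14), and a member 44.3 kb away (chr3:150211158-150214329) gave it 4 and 5 PETs. Of the 8 named partners that were higher with ARID1A, 7 were called wider with ARID1A than with H3K27ac. The ratio was 6.31 at 6q25.2 and 3.24 at this 3q25.1 anchor, and width was not separated from contact strength. The partners at 15q23, 15q26.1, 5q13.3 and 2p22.1, which fell between day 3 and day 0 H3K27ac, were also among the 8 highest in ARID1A over H3K27ac; both comparisons share the day 3 H3K27ac libraries.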

How the data were processed

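Per the submitters' processing notes, HiC-Pro, Bowtie2 and the hg19 build were used, without versions; how anchors and loops were called is not given in the sources used here. Deposited files list anchor pairs with raw PET counts and a value from 0 to 1, used only as a threshold of 0.01 because the authors' files do not say whether it is a p-value or q-value. Coordinates are as deposited, and whether they count from 0 or 1 is not stated. Replicates were taken as labelled.

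Anchors were merged in Python 3.11.15 (pandas 2.3.3, numpy 2.4.6), loops within a merged anchor were left out, and CPM is scaled to each library's remaining PETs. Bands are those of circlize 0.4.16, with chromosome Y left out of positions and runs. PET counts were tested with edgeR 4.0.16 (TMM, quasi-likelihood) in R 4.3.3 on the 4 libraries compared. Anchors needed 10 and loops 4 PETs in at least 2 libraries, and calls an adjusted p under 0.05. The test was checked on simulated counts. DESeq2 1.42.0, other scalings, filters, thinning, width limits and left-out libraries were alternatives. Exact permutation tests used scipy 1.17.1. Named regions are the 12 strongest, 6 widest and 6 best connected members, the strongest loops and longest runs, and the partners lowest in p whose libraries did not overlap between groups.

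The members and lists were chosen with earlier results of these data known. Comparisons by chromosome end, CPM class, strongest partner and flanking ARID1A loop were added after the data were seen. A planned search of sequences and genes in hg19 was not run.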

Additional observations from a re-analysis of the deposited data

How the results depend on the processing

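The number of members was 1757 when no day 0 H3K27ac or ARID1A anchor was allowed within 5000 bp, 3884 when only loops with a deposited value of 0.01 or less defined anchors, 2364 with anchors merged within 1000 bp, 2700 with 500 bp of overlap needed, and 2635 to 2740 with a library left out. Counting loops of 2 or more PETs gave 11.5% of PETs, 5 partners and a span of 75.3 kb. A deposited value of 0.01 or less gave 5.60%, 1 partner and 121.5 kb. Thinning gave 5 partners. Settings added after seeing the data gave 12.2% without the 2p16.1 anchor, and 6.35%, 9.5 partners and 138.4 kb for members beyond 5000 bp of other groups' anchors. With 1 day 3 library the ranges were 12.3% to 12.5%, 11 partners and 98.9 to 101.4 kb.

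Partners higher and lower at day 3 numbered 477 and 343 by DESeq2 (13.2% and 9.49%, against 10.6% and 8.35% of all anchors). DESeq2 gave no adjusted p for 970 of the 6251 anchors, and these counted as not called. Partners with 5 or more PETs gave 581 and 417 (28.0% and 20.1%, against 20.7% and 18.8%). Library totals gave 276 and 2058 and similar width 174 and 155, with shares as above. Thinning left 450 lower (14.1%, against 13.9%). Leaving out a library gave 669 to 778 higher and 471 (without day 3 replicate 1) to 525 lower. Bridged loops numbered 213 and 152 by DESeq2 (2.82% and 2.01%, against 1.86% and 1.65% of all loops). DESeq2 gave no adjusted p for 10002 of the 16642 loops. With shares as above, bridged loops numbered 336 and 1864 with library totals, 17 and 18 at similar width, and 160 lower unfiltered. Leaving out a library gave 363 (without day 0 replicate 1) to 600 higher and 237 (without day 3 replicate 2) to 333 lower. They also numbered 399 higher without day 0 replicate 2, and 238 lower without day 3 replicate 1. Against H3K27ac, ARID1A partners numbered 455 and 3435 with library totals and 437 and 743 at similar width, and 747 to 944 higher and 1865 to 1904 lower with a library left out. The causes were not tested, beyond fewer anchors or samples entering some of these.

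Replicate numbers do not pair the samples in the labels, and same-numbered deviations correlated at 0.012, 0.0063 and 0.014 in the 3 comparisons. The replicate block gave 889 and 703 partners at day 3 (24.6% and 19.5%, against 20.5% and 18.5% of all anchors). It gave 736 and 517 bridged loops (9.73% and 6.84%, against 7.14% and 6.13% of all loops) and 1086 and 2248 partners with ARID1A. The 40 named partners and loops kept direction and call in all 357 alternative values, of which only 5 were at similar width.

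The 2 libraries per group, the shallower day 0 libraries and anchors called per group limit every comparison. Members have no value outside the day 3 H3K27ac libraries.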
